A study of Mus musculus with 12 samples.

Results

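Genes of cholesterol and fatty acid synthesis were followed in C2i-Myog cells across 4 treatment groups of 3 arrays each. The set was a named list of 33 genes covering the enzymes from acetyl-CoA to cholesterol, the proteins that sense sterols, and the enzymes that make, lengthen and desaturate fatty acids. Of these, 32 were measured, out of 19938 genes that had a transcript cluster annotated to exactly 1 symbol. They comprised 22 genes of the cholesterol branch, made up of 17 enzymes and 5 sensing and transport genes, and 10 genes of the fatty acid branch. Acat2, the remaining member, was not analysed here. Where a gene had several clusters, the one with the highest mean over the 12 arrays was read, which concerned Idi1, Fdft1 and Acaca.

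C2i-Myog is a stable line made from the mouse myoblast line C2C12, engineered so that doxycycline turns on Flag-tagged myogenin (Myog), which drives transcription of muscle differentiation genes. All 4 groups carry that transgene, were grown in 10% FCS and, per the treatment protocol given with each sample, differentiated near confluence for 48 h in medium holding 1% horse serum, 10 µg/mL insulin and 10 µg/mL transferrin. Control cells received nothing further. SB203580 blocks p38α and p38β MAP kinase. Doxycycline (0.2 µg/mL) was added in the Dox group, SB203580 (10 µM) in the SB group, and both together in the SB+Dox group, in each case from the start of differentiation. A single stable line was used and the groups include no doxycycline treatment of cells that lack the transgene, so effects of the drug and of the induced Myog cannot be told apart. Nothing in the labels tells whether the 3 samples of a group came from separate cultures, so the p-values here speak for the spread among these samples alone, and that spread may be technical.

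Values are log2 RMA signals, in which a difference of 1 stands for a doubling. Array medians lay between 4.86 and 5.06, and replicates correlated at 0.989 to 0.996 across clusters. A gene was said to rise or fall where its limma p-value, adjusted over 21789 clusters by the Benjamini-Hochberg method, was under 0.05. The Myog cluster had means of 9.91 ± 0.26 (control), 10.37 ± 0.05 (Dox), 7.70 ± 0.68 (SB, where it fell) and 8.33 ± 0.30 (SB+Dox; SD, n = 3). The doxycycline differences of 0.46 and 0.64 did not pass the test (adjusted p = 0.467 without and 0.157 with the inhibitor). Where that cluster's probes lie relative to the cDNA was not analysed here, and the groups are called by their labels. The 7 myoblast identity genes were all measured, and some of them changed. In SB against control Myod1 (log2 -0.56, adjusted p = 0.0356), Itga7 (-0.59, 0.00536) and Cdh15 (-0.52, 0.0197) fell and Myf5 rose (0.60, 0.021). The comparison of SB+Dox with Dox had calls for 3 of them: Myod1 (-1.14, 0.000138) and Cdh15 (-0.47, 0.0222) fell and Myf5 rose (1.42, 1.7e-05), and in Dox against control Myf5 fell (-1.16, 0.000235). Of the same list 1 rose in SB+Dox against SB and 2 fell in SB+Dox against control. The part of these changes in the lipid results was not tested. The members moved together from array to array within a group: SB replicate 1 was the lowest SB array for 30 of 32 members, control replicate 3 the lowest control array for 25, and SB+Dox replicate 2 the highest of its group for 25. Members are therefore no independent replicates of a condition.

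Cells make cholesterol from acetyl-CoA through mevalonate, isoprenoid units, squalene and lanosterol, and most enzymes of the route are under the transcription factor SREBP2 (gene Srebf2). The related SREBP1 (Srebf1) acts mainly on genes that make and desaturate fatty acids. Both are held in the endoplasmic reticulum by SCAP and the INSIG proteins while sterols are plentiful, and reach the nucleus after cleavage in the Golgi when sterols are scarce. In muscle cells the products go into membranes and, through isoprenoids, onto membrane-bound proteins.

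The promoters of 5 members are shown because SREBPs bind together with the factors NF-Y and Sp1 at many of their targets, and because these genes stand for the patterns below: Mvk, Fasn and Insig1 rose with the inhibitor, Hmgcs1 passed no test and Ebp fell. Each sequence is the 250 bases before the transcript start in the RefSeq table (GRCm38.p6), written 5′ to 3′ on the gene's strand, at chr5:114444019-114444268 (plus) for Mvk, chr11:120824548-120824797 (minus) for Fasn, chr5:28071162-28071411 (plus) for Insig1, chr13:119690101-119690350 (plus) for Hmgcs1 and chrX:8193513-8193762 (minus) for Ebp. Capitals mark the NF-Y motif CCAAT on either strand, so that ATTGG is its reverse complement, and the sterol response element TCACNCCAC.
Mvk: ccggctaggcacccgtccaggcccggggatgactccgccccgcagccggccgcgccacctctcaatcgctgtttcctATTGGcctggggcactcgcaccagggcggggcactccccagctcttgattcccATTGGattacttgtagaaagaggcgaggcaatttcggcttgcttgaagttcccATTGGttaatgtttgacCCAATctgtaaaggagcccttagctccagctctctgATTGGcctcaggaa
Fasn: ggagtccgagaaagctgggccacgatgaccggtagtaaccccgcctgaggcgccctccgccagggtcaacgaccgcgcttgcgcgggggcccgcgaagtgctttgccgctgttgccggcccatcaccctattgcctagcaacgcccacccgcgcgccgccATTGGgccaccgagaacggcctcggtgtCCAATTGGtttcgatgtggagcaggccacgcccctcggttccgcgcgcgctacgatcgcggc
Insig1: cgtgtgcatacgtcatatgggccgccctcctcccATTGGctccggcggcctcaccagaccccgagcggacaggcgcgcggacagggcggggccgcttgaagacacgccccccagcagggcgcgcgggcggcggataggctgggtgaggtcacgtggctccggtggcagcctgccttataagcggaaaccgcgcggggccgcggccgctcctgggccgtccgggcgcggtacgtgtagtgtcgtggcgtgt
Hmgcs1: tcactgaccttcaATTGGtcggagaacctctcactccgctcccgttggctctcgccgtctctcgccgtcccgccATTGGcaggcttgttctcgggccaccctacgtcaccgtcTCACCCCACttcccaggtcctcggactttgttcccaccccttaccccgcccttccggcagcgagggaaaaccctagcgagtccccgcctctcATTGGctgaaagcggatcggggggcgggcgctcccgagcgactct
Ebp: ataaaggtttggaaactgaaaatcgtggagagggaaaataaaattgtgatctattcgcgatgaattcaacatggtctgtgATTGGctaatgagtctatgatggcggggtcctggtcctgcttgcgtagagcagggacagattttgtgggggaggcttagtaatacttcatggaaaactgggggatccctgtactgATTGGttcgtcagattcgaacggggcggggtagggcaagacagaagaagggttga

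A window was found for 25 of the 32 measured members. CCAAT occurred in 20 of these 25 genes (80%), against 37.5% of all 27025 genes of the table. The Sp1 motif GGGCGG occurred in 20 (80%), against 35.4% of all genes and 49.3% of the genes on the array that had a window. TCACNCCAC occurred in 1 member, Hmgcs1, at position -137 from the start, and in 1.22% of all genes. The E-box CACGTG was found in 6 members (24%, against 6.86%) and CAGCTG, the E-box form known for myogenic factors, in 4 (16%, against 14.7%). Both strands were searched, and in Fasn a CCAAT and an ATTGG overlap by 2 bases. Of the 15 genes with a window that rose in either inhibitor comparison 11 held CCAAT, as did 9 of the other 10, so the motif was present in most genes of either kind. A motif match is a description of the letters and no measure of binding.

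Genes of both branches rose with the p38 inhibitor. In SB against control 14 members rose and 1, Ebp, fell, while 2.51% of all clusters rose and 3.87% fell. The members' median log2 change was 0.47, the median over all genes was 0.03, and 31 of 32 members had a change above 0. In 24 members all 3 SB arrays lay above all 3 control arrays, which held for 10.3% of all clusters. In SB+Dox against Dox 17 members rose and Ebp again fell, while 6.97% of all clusters rose and 3.43% fell. The median was 0.50 (all genes -0.03), and 24 members had all 3 SB+Dox arrays above all 3 Dox arrays, against 15.6% of all clusters. The comparisons share no array, but were fitted in a single model with a shared spread, so their calls are not independent. Members that rose in both numbered 13, namely Mvk, Idi1, Lss, Tm7sf2, Nsdhl, Dhcr7, Insig1, Fasn, Elovl5, Elovl6, Scd1, Fads1 and Fads2. They are 92.9% of the members that rose in the first and 76.5% of those in the second. The matching overlap over all clusters was not analysed here, so these percentages are not read as particular to the members. In bulk RNA, fewer cells of a type and less RNA per cell cannot be told apart.

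The number of calls depended on single arrays. Without SB replicate 2, 7 members were called in SB against control, and Mvk, Idi1, Fdft1, Lss, Nsdhl, Scd1, Fads1 and Fads2 had adjusted p between 0.0537 and 0.167. Without control replicate 3, 8 were called, the same genes except Fdft1 being lost (0.0573 to 0.166), and without SB replicate 1, 19 were called, Nsdhl and Fads1 being lost (0.0653 to 0.082). Smaller losses among Mvk, Idi1, Nsdhl, Scd1, Fads1 and Fads2 came without control replicate 1 (0.0571 to 0.0871), control replicate 2 (0.0667 to 0.121), SB replicate 3 (0.0595 to 0.0729), Dox replicate 2 (0.0555) and each SB+Dox replicate (0.0525 to 0.0598). In SB+Dox against Dox, 12 were called without Dox replicate 3 or without SB+Dox replicate 2, Pmvk, Idi1, Nsdhl, Acly, Scd1 and Fads2 being lost (0.0735 to 0.153 and 0.0800 to 0.147). Idi1 and Nsdhl also lost theirs without Dox replicate 2 or SB+Dox replicate 1 (0.053 to 0.15), Idi1 without SB replicate 2 (0.0512), and both, with Pmvk and Scd1, without SB+Dox replicate 3 (0.0566 to 0.0843). Tm7sf2, Ebp, Dhcr7, Insig1, Fasn, Elovl5 and Elovl6 kept their calls in both comparisons under all 22 alternatives tried in each.

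**Figure D1:**
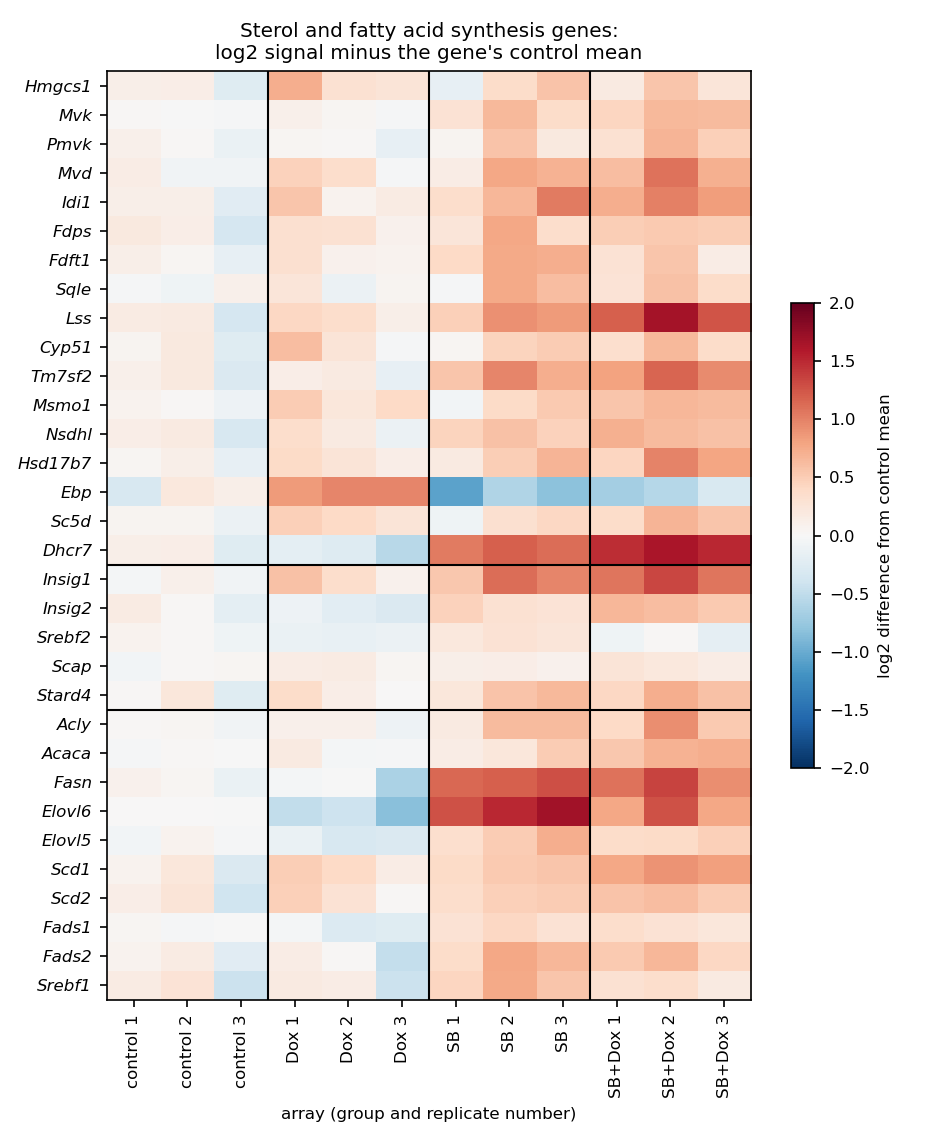
Log2 signal of each of the 32 measured members minus that gene's control mean (colour scale), in rows by role, on each of the 12 arrays in columns. SB and SB+Dox columns are mostly above 0 except for Ebp, and SB replicate 1 is the palest SB column.

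**Figure D2:**
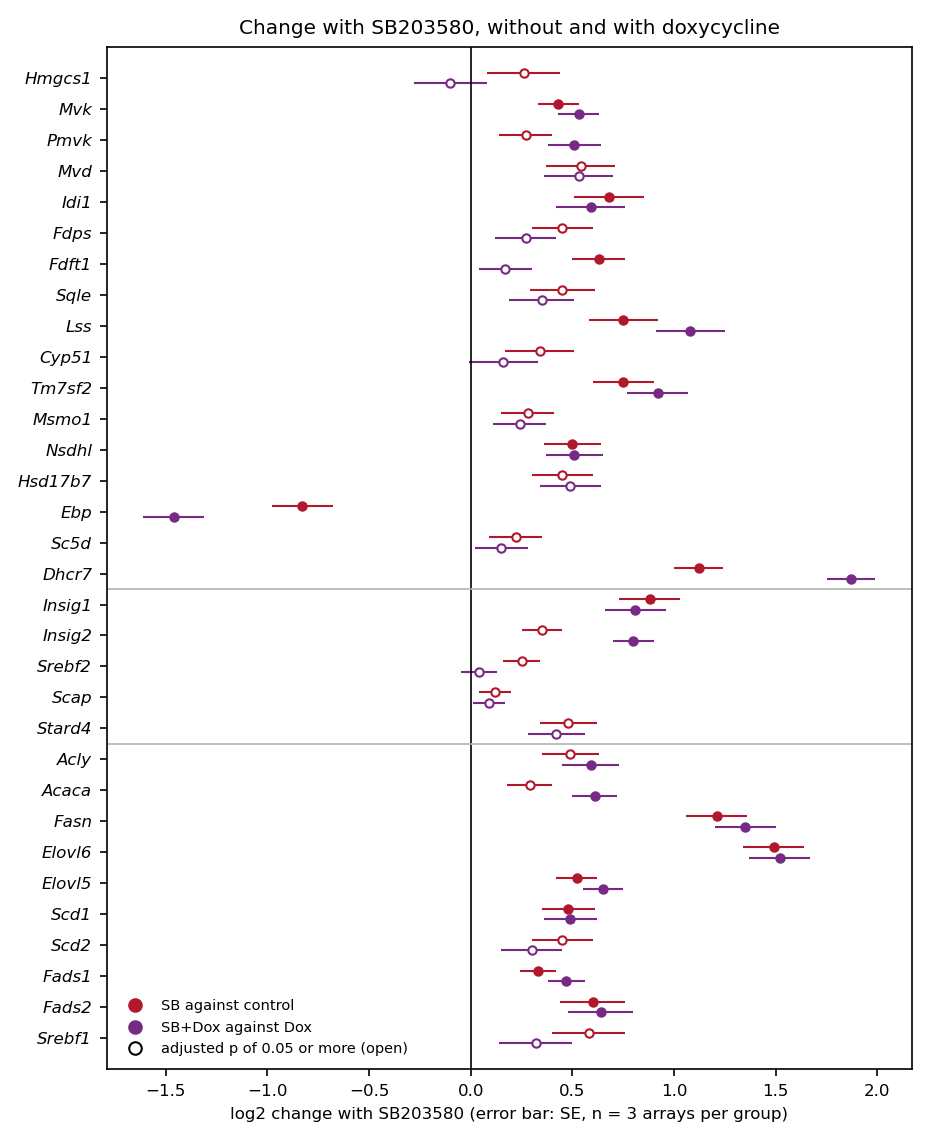
Log2 change with SB203580 per gene (x axis, points with SE, 3 arrays per group), without doxycycline (SB against control) and with it (SB+Dox against Dox). Filled points passed an adjusted p of 0.05, which 15 and 18 members did, and Ebp is the only filled pair left of 0.

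Dhcr7, which encodes the reductase of the last step to cholesterol, had the largest rise of any cholesterol gene. It read 7.85, 7.86 and 7.48 in control replicates 1 to 3, 7.54, 7.47 and 7.18 in Dox, 8.77, 8.92 and 8.84 in SB, and 9.20, 9.37 and 9.23 in SB+Dox. The inhibitor groups did not overlap the groups without it. Relative to control, Dhcr7 was 2.17-fold higher in SB (log2 1.12, SE 0.12, adjusted p = 6.11e-05) and 3.66-fold higher in the SB+Dox group relative to Dox (log2 1.87, SE 0.12, adjusted p = 2.12e-07).

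Ebp, the isomerase that moves a double bond of the sterol ring a few steps before Dhcr7, went the other way. Its values were 6.33, 6.87 and 6.77 in control, 7.51, 7.64 and 7.64 in Dox, 5.59, 6.05 and 5.84 in SB, and 5.98, 6.08 and 6.35 in SB+Dox. Dox arrays were the highest and all SB arrays lay below all control arrays. SB+Dox overlapped SB, and 1 SB+Dox array lay just above the lowest control array. Relative to control Ebp was 1.78-fold lower in SB (log2 -0.83, SE 0.15, adjusted p = 0.00325), and relative to Dox it was 2.75-fold lower in SB+Dox (log2 -1.46, SE 0.15, adjusted p = 1.64e-05). It was also the member that rose with doxycycline alone, 1.92-fold (log2 0.94, SE 0.15, adjusted p = 0.00132). Those calls held under all alternatives.

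**Figure D3:**
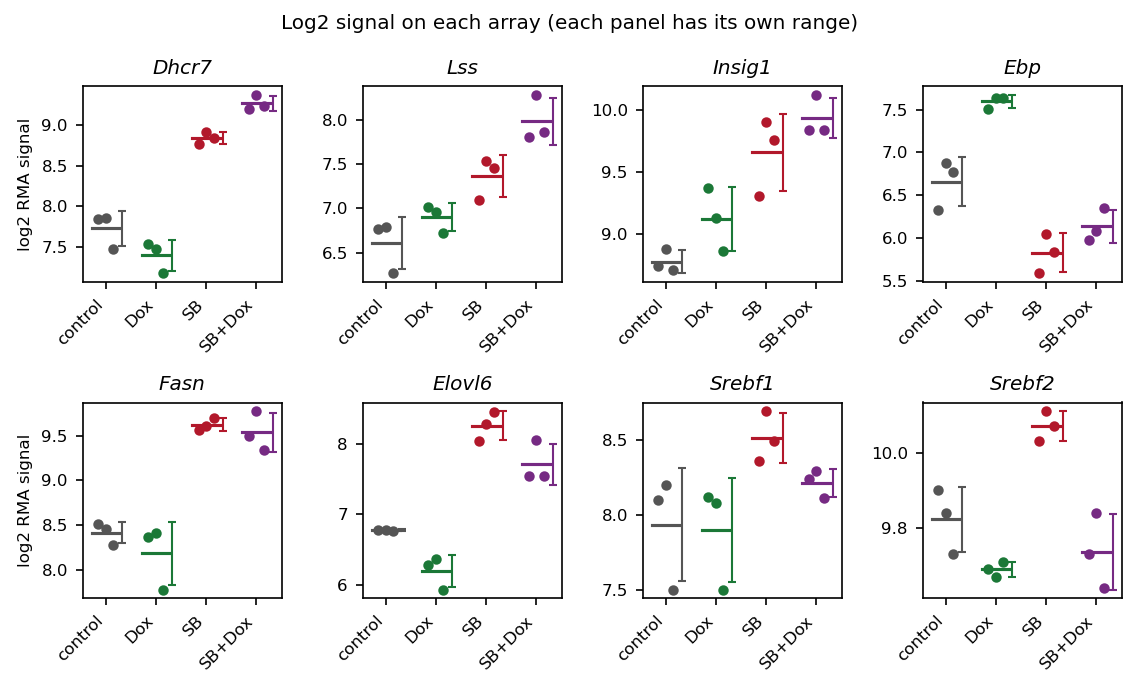
Log2 signal of single members (y axis, each panel with its own range) on the 3 arrays of each group. Dhcr7 and Ebp move in opposite directions with the inhibitor, at 8.77 to 8.92 in SB against 7.48 to 7.86 in control for Dhcr7 and 5.59 to 6.05 against 6.33 to 6.87 for Ebp.

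Lss and Tm7sf2 act on the sterol ring. Lss closes squalene epoxide into lanosterol, and read 6.77, 6.79 and 6.27 in control, 7.02, 6.96 and 6.72 in Dox, 7.09, 7.53 and 7.46 in SB, and 7.80, 8.28 and 7.86 in SB+Dox. All 4 groups followed in that order without overlap except between control and Dox. The rise was 1.68-fold in SB against control (log2 0.75, SE 0.17, adjusted p = 0.0129) and 2.11-fold in SB+Dox against Dox (log2 1.08, SE 0.17, adjusted p = 0.000549). The first of these was lost without control replicate 3 or SB replicate 2, as given above. Tm7sf2, a sterol reductase, read 6.35, 6.44 and 5.96 in control, 6.39, 6.43 and 6.09 in Dox, 6.80, 7.23 and 6.98 in SB, and 7.06, 7.41 and 7.20 in SB+Dox. Control and Dox overlapped throughout and the inhibitor arrays lay above both. It rose 1.69-fold (adjusted p = 0.00616) and 1.89-fold (adjusted p = 0.000784).

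Among the early enzymes, Mvk, the mevalonate kinase, read 7.03, 7.0 and 6.99 in control, 7.11, 7.05 and 6.99 in Dox, 7.29, 7.65 and 7.38 in SB, and 7.43, 7.65 and 7.64 in SB+Dox. It rose 1.35-fold in SB against control (log2 0.43, SE 0.10, adjusted p = 0.0202) and 1.44-fold in SB+Dox against Dox (log2 0.53, SE 0.10, adjusted p = 0.0034). The next kinase, Pmvk, read 6.39, 6.32 and 6.16 in control, 6.33, 6.32 and 6.13 in Dox, 6.35, 6.86 and 6.48 in SB, and 6.59, 6.97 and 6.76 in SB+Dox. A single SB array, replicate 1, lay among the controls. Pmvk rose only in the second comparison by the test (log2 0.51, SE 0.13, adjusted p = 0.0219, against log2 0.27, adjusted p = 0.324), and the interaction of both treatments was not passed by any member.

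Idi1, which interconverts the isoprenoid building blocks, read 8.17, 8.18 and 7.83 in control, 8.62, 8.13 and 8.23 in Dox, 8.41, 8.73 and 9.10 in SB, and 8.78, 9.06 and 8.89 in SB+Dox. SB lay above control on all arrays, while SB replicate 1 lay below Dox replicate 1. Idi1 rose 1.61-fold (log2 0.68, SE 0.17, adjusted p = 0.0232) and 1.5-fold (log2 0.59, SE 0.17, adjusted p = 0.0365), and its other cluster gave 0.70 and 0.59. Fdft1, the squalene synthase, read 9.50, 9.43 and 9.23 in control, 9.71, 9.47 and 9.46 in Dox, 9.78, 10.15 and 10.11 in SB, and 9.68, 9.94 and 9.53 in SB+Dox. It rose in SB against control (1.54-fold, log2 0.63, SE 0.13, adjusted p = 0.00856), with SB+Dox overlapping Dox (log2 0.17, adjusted p = 0.532). The other Fdft1 cluster gave log2 0.61 (adjusted p = 0.0184) and 0.37 (adjusted p = 0.14).

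Nsdhl, which takes part in removing the methyl groups of lanosterol, read 10.91, 10.95 and 10.45 in control, 11.12, 10.95 and 10.65 in Dox, 11.21, 11.36 and 11.23 in SB, and 11.48, 11.40 and 11.36 in SB+Dox. It rose 1.42-fold in both comparisons (adjusted p = 0.0429 and 0.0285). Hmgcs1, the synthase ahead of mevalonate, Fdps, the farnesyl diphosphate synthase, Sqle, the squalene epoxidase, and Cyp51, the lanosterol demethylase, passed none of the 6 comparisons in the main fit. Their SB against control differences were 0.26, 0.45, 0.45 and 0.34, with 95% intervals of -0.12 to 0.64, 0.14 to 0.77, 0.09 to 0.80 and -0.03 to 0.70. Hmgcs1 had group means of 8.23 ± 0.21 (control), 8.66 ± 0.26 (Dox), 8.49 ± 0.38 (SB) and 8.56 ± 0.20 (SB+Dox; SD, n = 3), and SB replicate 1 at 8.07 lay within the control range. Calls were thus not made at every step of the route, and these intervals of the 4 genes reach the size of the rises that passed in SB against control. Among the alternatives, a replicate block, quantile normalization or array weights gave a call for Fdps in that comparison. Sqle was called there with array weights or without SB replicate 1. Fdps was also called in SB+Dox against control under some alternatives. In SB+Dox against Dox, Hmgcs1 and Ebp were the 2 members below 0. The Hmgcs1 difference there was -0.10, and its 95% interval of -0.48 to 0.29 did not reach the smallest rise that passed (0.47, Fads1). Fdps, Sqle and Cyp51 stood at 0.27, 0.35 and 0.16 there, with intervals up to 0.59, 0.70 and 0.53.

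Of the sterol sensing and transport genes, Insig1, the retention protein that is itself an SREBP target, rose with the inhibitor both times. It read 8.74, 8.88 and 8.71 in control, 9.37, 9.13 and 8.86 in Dox, 9.31, 9.90 and 9.76 in SB, and 9.84, 10.12 and 9.84 in SB+Dox. Each inhibitor group lay above its own comparison group. The folds were 1.84 (log2 0.88, SE 0.15, adjusted p = 0.00286) and 1.76 (log2 0.81, SE 0.15, adjusted p = 0.00265). Insig2, its paralog, read 8.27, 8.13 and 7.91 in control, 8.0, 7.89 and 7.82 in Dox, 8.57, 8.41 and 8.37 in SB, and 8.77, 8.72 and 8.63 in SB+Dox. Insig2 rose 1.74-fold in SB+Dox against Dox (log2 0.80, SE 0.10, adjusted p = 0.000136), and its SB against control difference of 0.35 did not pass (adjusted p = 0.0663).

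The transcription factor genes themselves passed neither inhibitor comparison in the main fit. Srebf2 read 9.90, 9.84 and 9.73 in control, 9.69, 9.67 and 9.71 in Dox, 10.03, 10.11 and 10.07 in SB, and 9.73, 9.84 and 9.64 in SB+Dox. SB arrays were above all others, by a log2 difference from control of 0.25 (adjusted p = 0.128), and SB+Dox against Dox gave 0.04 (adjusted p = 0.842). Srebf1 read 8.10, 8.20 and 7.50 in control, 8.12, 8.08 and 7.50 in Dox, 8.36, 8.69 and 8.49 in SB, and 8.24, 8.29 and 8.11 in SB+Dox. Replicate 3 was low in both groups without the inhibitor. The Srebf1 differences of 0.58 (95% interval 0.19 to 0.97, adjusted p = 0.0787) and 0.32 (adjusted p = 0.365) did not pass. With a replicate block, quantile normalization, the 50th percentile filter or array weights, Srebf1 was called in SB against control. The same held without Dox replicate 3. Srebf2 was called there with the 50th percentile filter only. Scap, the escort protein, read 7.86, 7.94 and 7.96 in control, 8.07, 8.09 and 7.96 in Dox, 8.04, 8.05 and 8.01 in SB, and 8.18, 8.13 and 8.07 in SB+Dox. The Scap difference was 0.12 in SB against control (95% interval -0.06 to 0.29, adjusted p = 0.53).

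In the fatty acid branch 6 of 10 genes rose in SB against control, while 2.51% of all clusters did. In SB+Dox against Dox 8 of 10 rose, while 6.97% of all clusters did. The medians were 0.50 and 0.60, and none fell (0 lower at an unadjusted p under 0.05 by limma in either). Elovl6, which lengthens saturated fatty acids, had the largest rise of all members in SB against control. It read 6.78, 6.78 and 6.76 in control, 6.28, 6.36 and 5.93 in Dox, 8.04, 8.28 and 8.45 in SB, and 7.54, 8.05 and 7.54 in SB+Dox. The 4 groups were in the order Dox, control, SB+Dox, SB, with SB+Dox replicate 2 just above the lowest SB array. Relative to control, Elovl6 was 2.80-fold higher in SB (log2 1.49, SE 0.15, adjusted p = 3.66e-05) and 2.87-fold higher in SB+Dox relative to Dox (log2 1.52, SE 0.15, adjusted p = 1.14e-05).

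Fasn, the synthase that builds palmitate, read 8.51, 8.46 and 8.28 in control, 8.37, 8.41 and 7.78 in Dox, 9.56, 9.61 and 9.70 in SB, and 9.50, 9.77 and 9.34 in SB+Dox. The arrays with the inhibitor lay at 9.34 and above and those without it at 8.51 and below. Fasn rose 2.31-fold (log2 1.21, SE 0.15, adjusted p = 0.000221) and 2.55-fold (log2 1.35, SE 0.15, adjusted p = 4.24e-05). Acly, which makes cytosolic acetyl-CoA from citrate, read 7.90, 7.92 and 7.80 in control, 7.97, 7.97 and 7.77 in Dox, 8.06, 8.5 and 8.51 in SB, and 8.27, 8.80 and 8.40 in SB+Dox. The Acly difference was 0.49 in SB against control (adjusted p = 0.0598) and passed in SB+Dox against Dox (1.5-fold, log2 0.59, adjusted p = 0.014). Acaca, the carboxylase that commits acetyl-CoA to fatty acids, read 7.92, 7.97 and 7.94 in control, 8.12, 7.91 and 7.92 in Dox, 8.09, 8.17 and 8.45 in SB, and 8.49, 8.64 and 8.67 in SB+Dox. It rose 1.53-fold in SB+Dox against Dox (log2 0.61, SE 0.11, adjusted p = 0.00129), and SB against control gave 0.29 (adjusted p = 0.138).

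Elovl5, which lengthens polyunsaturated chains, read 8.69, 8.81 and 8.72 in control, 8.61, 8.42 and 8.45 in Dox, 9.07, 9.25 and 9.46 in SB, and 9.10, 9.12 and 9.21 in SB+Dox. It rose 1.43-fold (adjusted p = 0.00678) and 1.57-fold (adjusted p = 0.000729). Fads2, the desaturase that opens polyunsaturated fatty acid synthesis, read 9.68, 9.77 and 9.38 in control, 9.76, 9.63 and 9.14 in Dox, 9.98, 10.39 and 10.27 in SB, and 10.13, 10.28 and 10.02 in SB+Dox. The rise of Fads2 was 1.52-fold (adjusted p = 0.0325) and 1.55-fold (adjusted p = 0.0161). Fads1, the desaturase that follows, had group means of 9.57 ± 0.03, 9.38 ± 0.13, 9.90 ± 0.07 and 9.85 ± 0.06 in control, Dox, SB and SB+Dox, and rose 1.26-fold (adjusted p = 0.0389) and 1.38-fold (adjusted p = 0.00284). Scd1, the stearoyl-CoA desaturase, read 10.56, 10.72 and 10.20 in control, 10.98, 10.89 and 10.64 in Dox, 10.87, 11.02 and 11.05 in SB, and 11.27, 11.39 and 11.32 in SB+Dox. It rose 1.40-fold (adjusted p = 0.0338) and 1.41-fold (adjusted p = 0.0211), while SB and Dox overlapped. The calls of Fads1, Fads2 and Scd1 in SB against control were among those lost without control replicate 3 or SB replicate 2.

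Doxycycline without the inhibitor moved few members. In Dox against control Ebp rose and Elovl6 fell, while 1.43% of all clusters rose and 3.88% fell, so the share of members called was close to that background. The median change was 0.20 over the cholesterol branch, 0.25 over its enzymes and -0.07 over the fatty acid branch (all genes 0.00). The Elovl6 difference was 1.5-fold (log2 -0.59, SE 0.15, adjusted p = 0.0325). It was lost without any one of the control replicates (adjusted p 0.0803 to 0.105), without Dox replicate 1 (0.0575) or without Dox replicate 3 (0.177). Without SB replicate 1, 4 members were called, Msmo1 and Sc5d being added (0.0327 to 0.0489), and without control replicate 3 Dhcr7 was added (0.0396).

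With the inhibitor present, doxycycline gave 2 rises and 2 falls in SB+Dox against SB, where 4.40% of all clusters rose and 2.71% fell. Lss was 1.54-fold higher (log2 0.62, SE 0.17, adjusted p = 0.0348) and Dhcr7 1.34-fold higher (log2 0.42, SE 0.12, adjusted p = 0.0462). Elovl6 was 1.46-fold lower (log2 -0.55, SE 0.15, adjusted p = 0.0377) and Srebf2 1.26-fold lower (log2 -0.33, SE 0.09, adjusted p = 0.0288). None of these 4 calls held under every alternative: 0 were left without SB replicate 2 (adjusted p 0.0509 to 0.117) or SB+Dox replicate 3 (0.0692 to 0.177), 1 without SB replicate 1 (0.0546 to 0.161) or SB+Dox replicate 1 (0.0764 to 0.133), and 2 without control replicate 1 (0.052 to 0.0551), control replicate 2 (0.0511), Dox replicate 1 (0.0501 to 0.0509), SB replicate 3 (0.0591 to 0.0802) or SB+Dox replicate 2 (0.151 to 0.156), while Dhcr7 alone was lost without Dox replicate 2 (0.0563). Without SB replicate 3, Msmo1 and Acaca were called as well (0.00991 to 0.0355). Acaca stood at 0.36 (adjusted p = 0.053) on the cluster read here and at 0.50 (adjusted p = 0.0291) on its other cluster.

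**Figure D4:**
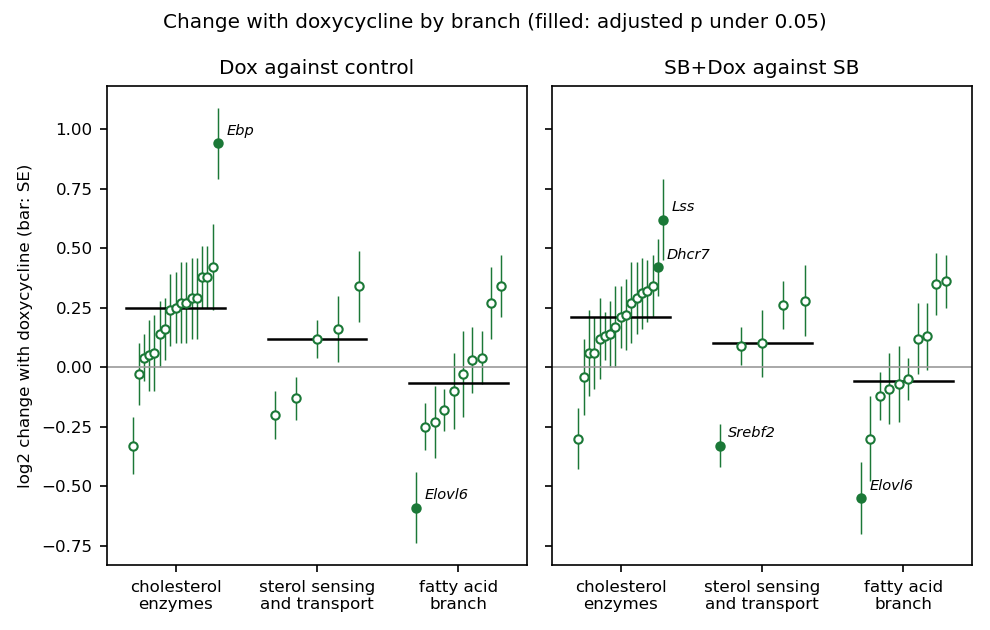
Log2 change with doxycycline of each member (y axis, points with SE, 3 arrays per group), by role, in the panels Dox against control and SB+Dox against SB. Most points are open, and the filled ones are Ebp and Elovl6 in the first panel and Lss, Dhcr7, Elovl6 and Srebf2 in the second.

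Both treatments together gave the widest rise against control. In SB+Dox against control 20 members rose, while 2.84% of all clusters did, and the median change was 0.58 (all genes -0.02). This comparison shares its control arrays with SB against control and with Dox against control, and its SB+Dox arrays with the others. The 13 cholesterol branch genes that rose included 5 that passed no other comparison in the main fit. Mvd, the decarboxylase that follows Pmvk, read 7.34, 7.12 and 7.13 in control, 7.66, 7.55 and 7.18 in Dox, 7.35, 7.97 and 7.89 in SB, and 7.81, 8.29 and 7.90 in SB+Dox, a rise of 1.74-fold (adjusted p = 0.0119). Hsd17b7, a ketosteroid reductase of the route, read 7.52, 7.59 and 7.31 in control, 7.85, 7.73 and 7.6 in Dox, 7.65, 7.96 and 8.16 in SB, and 7.91, 8.47 and 8.27 in SB+Dox, a rise of 1.68-fold (adjusted p = 0.00812). In both genes the single treatments lay between control and SB+Dox in their means.

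Msmo1, the methylsterol oxidase, read 10.33, 10.29 and 10.16 in control, 10.77, 10.49 and 10.66 in Dox, 10.21, 10.64 and 10.78 in SB, and 10.82, 10.93 and 10.90 in SB+Dox, where it was 1.54-fold above control (adjusted p = 0.0101). Sc5d, the sterol desaturase before Dhcr7, read 7.80, 7.81 and 7.64 in control, 8.22, 8.15 and 8.01 in Dox, 7.67, 8.07 and 8.16 in SB, and 8.11, 8.43 and 8.30 in SB+Dox, 1.45-fold above control (adjusted p = 0.0243). For these genes Dox arrays lay above all control arrays, with differences of 0.38 each that did not pass (adjusted p = 0.126 each), and SB replicate 1 lay within the control range. Stard4, a carrier of cholesterol between membranes, read 6.38, 6.57 and 6.10 in control, 6.71, 6.48 and 6.35 in Dox, 6.57, 6.92 and 7.0 in SB, and 6.77, 7.08 and 6.94 in SB+Dox, 1.5-fold above control (adjusted p = 0.0292). Scd2, the other stearoyl-CoA desaturase, read 10.93, 11.05 and 10.39 in control, 11.26, 11.08 and 10.82 in Dox, 11.14, 11.26 and 11.30 in SB, and 11.36, 11.41 and 11.30 in SB+Dox, 1.48-fold above control (adjusted p = 0.0397).

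The largest differences of SB+Dox from control were those of Dhcr7 (2.91-fold, adjusted p = 4.49e-06), Lss (2.58-fold, 2e-04), Insig1 (2.23-fold, 0.00043), Fasn (2.17-fold, 0.000502), Tm7sf2 (1.96-fold, 0.0012) and Elovl6 (1.91-fold, 0.0017). Ebp did not pass (log2 -0.52, adjusted p = 0.058). Of the 20 calls 12 held under every alternative, and 13 calls were left without control replicate 3 or without SB+Dox replicate 2. In the first case Mvd, Nsdhl, Sc5d, Stard4, Acly, Elovl5 and Scd2 were lost (adjusted p 0.0514 to 0.142), and in the second Hsd17b7 was lost in place of Nsdhl (0.0505 to 0.133). Members of this group were also lost without control replicate 1 (0.056 to 0.13), control replicate 2 (0.0548 to 0.0639), Dox replicate 2 (0.0523), SB replicate 2 (0.0511 to 0.0567), SB+Dox replicate 1 (0.0517 to 0.1) and SB+Dox replicate 3 (0.0832 to 0.142), Elovl5, Scd2, Sc5d, Stard4, Acly and Nsdhl being the genes concerned.

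The interaction, which is the inhibitor change with doxycycline minus that without it, was passed by 0 members in limma, with 5 at an unadjusted p under 0.05, while 0.895% of all clusters passed in either direction. Those 5 were Dhcr7 (0.76, SE 0.17, adjusted p = 0.054), Insig2 (0.46, SE 0.15, adjusted p = 0.204), Acaca (0.32, SE 0.15, adjusted p = 0.436), Ebp (-0.63, SE 0.21, adjusted p = 0.226) and Fdft1 (-0.46, SE 0.18, adjusted p = 0.341). Dhcr7 passed without control replicate 3 (adjusted p = 0.0334) and under several other settings. A difference between the inhibitor response with and without doxycycline was thus not shown for any member at this threshold, including Fdft1, Pmvk, Insig2, Acaca and Acly, which passed in one inhibitor comparison and not in the other.

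By their means, the cholesterol and fatty acid branches differed in how they stood in the single treatment groups. The mean of the 22 cholesterol genes, relative to control, was 0.33, 0.18 and 0.06 in Dox, 0.20, 0.57 and 0.51 in SB, and 0.49, 0.73 and 0.56 in SB+Dox. The mean of the 10 fatty acid genes was 0.09, -0.01 and -0.29 in Dox, 0.49, 0.70 and 0.74 in SB, and 0.57, 0.75 and 0.56 in SB+Dox. Control arrays ran from -0.15 to 0.09 and from -0.16 to 0.11. The fatty acid mean minus the cholesterol mean was therefore -0.24, -0.19 and -0.34 in Dox, 0.29, 0.14 and 0.23 in SB, 0.07, 0.02 and -0.01 in SB+Dox, and -0.01 to 0.02 in control. The Dox arrays lay below control and the SB arrays above it, while both branches were raised to a like degree in SB+Dox. Without Ebp the difference was 0.23, 0.08 and 0.17 in SB, against -0.03 to 0.02 in control. With medians in place of means it was 0.15, -0.01 and 0.05 in SB, against -0.05 to 0.06 in control. The SB side thus rested in part on Ebp and a few strongly raised fatty acid genes, and with medians SB overlapped control. In Dox the difference was -0.15 to -0.30 without Ebp and -0.18 to -0.32 with medians. These are descriptions of lists chosen with results of these data known and carry no test.

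**Figure D5:**
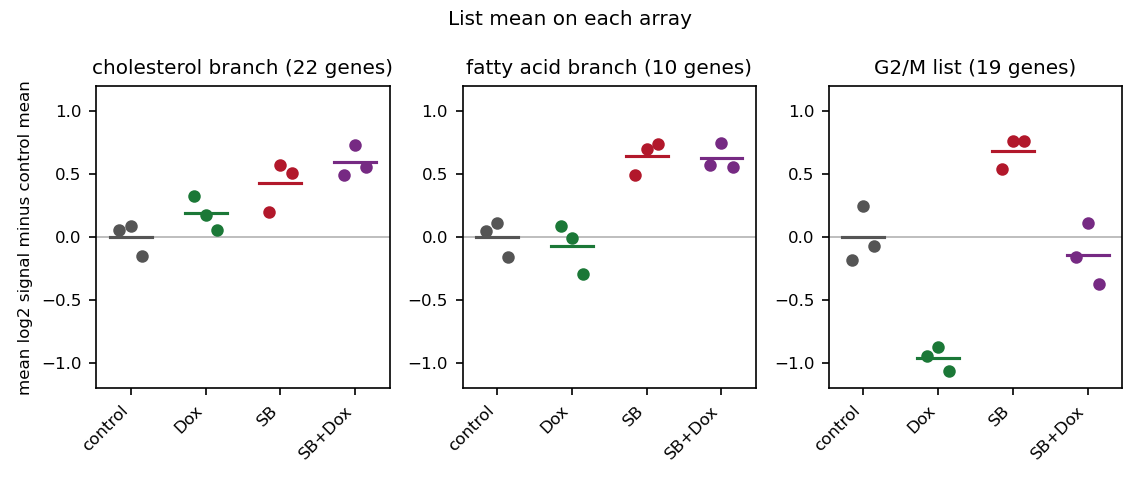
List mean of log2 signal minus the control mean (y axis) on each array of the 4 groups, for the cholesterol branch, the fatty acid branch and the G2/M list. Both lipid branches are high in SB and SB+Dox, whereas the G2/M list is high in SB, at 0.54 to 0.76, and near control in SB+Dox, at -0.37 to 0.11.

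Cell cycle genes moved with part of this pattern. Of 19 measured genes of the G2/M phase 16 rose in SB against control (median 0.62) and 15 in SB+Dox against Dox (median 0.84), 18 fell in Dox against control and all 19 in SB+Dox against SB. In SB+Dox against control 0 of the 19 passed in limma (0 higher and 1 lower at an unadjusted p under 0.05, median -0.16), and there 20 lipid synthesis members rose. Myotube genes went the other way in SB: 10 of 17 fell in SB against control (median -0.82), 4 fell in SB+Dox against Dox, 9 rose in SB+Dox against SB, and 3 rose and 3 fell in SB+Dox against control. The myotube list mean spanned 9.19 to 9.49 for control, 9.45 to 9.82 for Dox, 7.99 to 8.82 for SB, and 9.13 to 9.55 for SB+Dox. Beyond these values the part of either list in the lipid results was not tested.

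Fat cell markers were read because adipocytes make fatty acids. Of 12 adipocyte genes 10 were measured, and 0 passed in any comparison in limma (1 higher and 1 lower in SB against control at an unadjusted p under 0.05, and at most 1 in each other comparison). The list mean of the 3 arrays spanned 4.54 to 4.71 for control, 4.44 to 4.64 for Dox, 4.54 to 4.77 for SB, and 4.56 to 4.61 for SB+Dox. The defining markers Adipoq, Fabp4 and Lep had group means of 2.98 to 3.15, 2.54 to 2.64 and 3.36 to 3.41, below the array medians. Others of the list were brighter, and on single arrays 4 to 6 of the 10 measured genes lay above the array median. Steroidogenic and hepatocyte genes (7 of 8 measured) and macrophage genes (8 of 8) also had 0 calls (0 and 0 at an unadjusted p under 0.05 in SB against control). Of 7 measured fibroblast and osteoblast genes 1, the matrix proteoglycan gene Dcn, rose in SB against control (2.95-fold, adjusted p = 0.0118) and in SB+Dox against Dox (8.91-fold, adjusted p = 2.79e-05). Dcn also fell 6.26-fold in Dox against control (log2 -2.65, adjusted p = 3e-04), with group means of 7.49 (control), 4.85 (Dox), 9.05 (SB) and 8.0 (SB+Dox), and it was not called in SB+Dox against control. The part of other cell types in the lipid results was otherwise not tested.

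Lists of neighbouring lipid genes beyond the 33 members had medians closer to that of all genes, but in some comparisons their rises lay above the share over all clusters. That share was 2.51% for rises and 3.87% for falls in SB against control. In SB+Dox against Dox it was 6.97% and 3.43%. Of 24 measured further sterol genes of 30 listed, 1 rose and 1 fell in SB against control (median 0.06), Acat1, a thiolase, at log2 0.44 (adjusted p = 0.0218) and Ch25h, the cholesterol 25-hydroxylase, at -0.53 (adjusted p = 0.0322). These single calls were near the share over all clusters. Ch25h had group means of 4.74 in control and 4.21 in SB, below the array medians. In SB+Dox against Dox 7 rose and 1 fell (median 0.05), among them Lpin1, a phosphatidate phosphatase (1.91-fold, adjusted p = 0.000218), and Lrp8, a lipoprotein receptor (1.85-fold, adjusted p = 0.000249). Tmem97, an endoplasmic reticulum protein tied to sterol levels, rose in SB+Dox against SB (1.66-fold, adjusted p = 0.00169) and passed the interaction (0.97, SE 0.17, adjusted p = 0.0194). It was the 1 gene of this list that did.

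Of 34 measured further fatty acid and lipid synthesis genes, 5 rose and 3 fell in SB against control (median 0.09), and 8 rose and 1 fell in SB+Dox against Dox (median 0.13). The shares that rose were above the 2.51% and 6.97% over all clusters. Acss2, which makes acetyl-CoA from acetate, rose 2.03-fold (adjusted p = 0.00247) and 2.66-fold (adjusted p = 9.3e-05), and Pcyt2, of phosphatidylethanolamine synthesis, rose 1.47-fold (adjusted p = 0.0252) and 1.56-fold (adjusted p = 0.00643). Me1, the malic enzyme that supplies NADPH, rose in SB+Dox against Dox (1.80-fold, adjusted p = 0.00095). Fads3, a desaturase family gene, fell in SB against control (1.78-fold, log2 -0.83, adjusted p = 0.00286) and rose in SB+Dox against SB (1.93-fold, adjusted p = 0.00131). Lpin3 showed the same directions, at log2 -0.79 (adjusted p = 0.00131) and 0.54 (adjusted p = 0.0142).

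Fatty acid oxidation is the opposite pathway. Of 23 measured, 5 rose in SB against control and 6 in SB+Dox against Dox, and 0 fell in either (0 lower at an unadjusted p under 0.05 by limma), with medians of 0.10 and 0.16. Over all clusters 2.51% and 6.97% rose, smaller shares than in this list. Hadh, a mitochondrial dehydrogenase of the pathway, rose 1.86-fold (adjusted p = 0.00015) and 3.34-fold (adjusted p = 1.7e-07), and passed the interaction (0.85, SE 0.15, adjusted p = 0.0228). Cpt1a, which admits fatty acids to mitochondria, rose 1.67-fold (adjusted p = 0.000798) and 1.97-fold (adjusted p = 3.66e-05). Lpl, the lipoprotein lipase, rose 1.99-fold (adjusted p = 0.002) and 2.18-fold (adjusted p = 0.000353), and Ppargc1a, a coactivator of mitochondrial genes, 1.86-fold (adjusted p = 0.0171) and 2.33-fold (adjusted p = 0.00114). Lpl had group means of 4.27 in control and 3.82 in Dox, and Ppargc1a 4.65 in Dox, all below the array medians. In Dox against control Cpt1a (log2 -0.66, adjusted p = 0.00165), Hadh (log2 -0.54, adjusted p = 0.00652) and the fatty acid carrier gene Cd36 (log2 -1.04, adjusted p = 0.00835) fell. Cd36 was dim, with group means of 4.49 in control and 3.44 in Dox, below the array medians.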

How the data were processed

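RNA of 12 samples was hybridised to Affymetrix whole-transcript arrays. The deposited log2 values, 1 per transcript cluster and array, were made by the authors with RMA in Affymetrix Expression Console, per the submitters' processing notes. Versions are not given in the sources used here. RMA corrects background and equalises arrays, so a shift of all genes alike would not be seen. Values ran from 0.5 to 13.17 with 0 missing. Of 35557 clusters, 21789 had exactly 1 symbol, 1621 several and 12147 none, by the platform annotation of that table; 21698 matched the gene table by Entrez identifier. Arrays have no depth, and 3 arrays per group limit the precision.

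All 12 arrays and all single-symbol clusters entered one linear model, with a mean for each group, in limma 3.58.1 in R 4.3.3 (eBayes without trend, two-sided tests, 8 residual and 6.56 prior degrees of freedom), and p-values were adjusted by Benjamini-Hochberg within each comparison. The method was tested on simulated data. Figures were drawn with matplotlib 3.10.9 in Python 3.11.15. Values per array are given for members called in an inhibitor comparison with an absolute log2 change of at least 0.5, for Srebf1, Srebf2, Scap and Insig2, and for members called in another comparison. Of each other list up to 4 called genes per comparison could be named. The members and lists were chosen with earlier results of these data known.

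Replicate numbers come from the sample titles. After group means were removed, arrays with the same number correlated at 0.19 to 0.49 between SB and SB+Dox. The numbers may therefore pair those groups, though the labels state no pairing. Between Dox and SB+Dox the same-number correlations were weaker, at 0.09 to 0.28, but lay above all those of unlike numbers (-0.17 to 0.02). A pairing of those arrays is thus possible too. In the remaining pairs of groups the lowest same-number correlation lay between -0.14 and 0.05. The alternatives were a replicate block, quantile normalization, centring of arrays, filters at the 25th and 50th percentile, an intensity trend, array weights (statmod 1.5.0 installed), all clusters tested, the mean of a gene's clusters, only the compared groups, and leaving out each array.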

Additional observations from a re-analysis of the deposited data

How the results depend on the processing

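No member reversed a called change under any of the 22 alternatives per comparison (21 for the interaction). With quantile normalization 23 members were called in SB against control in place of 15, and 9 with arrays centred on their medians (Mvk, Idi1, Nsdhl, Scd1, Fads1 and Fads2 lost, adjusted p 0.0649 to 0.135); the cause was not tested. With every cluster tested, which adjusts over more clusters, 8 were called in SB against control and 12 in SB+Dox against Dox. In the latter Pmvk, Idi1, Nsdhl, Acly, Scd1 and Fads2 were lost (adjusted p 0.0511 to 0.111). The other counts with this setting were 0 in SB+Dox against SB (adjusted p 0.0519 to 0.11), 1 in Dox against control and 13 in SB+Dox against control. Centring left 17 in SB+Dox against Dox, Idi1 being lost (adjusted p = 0.0507). In SB+Dox against SB, 2 were left after centring and 1 with only the compared groups fitted, and array weights gave 4 in Dox against control. The interaction, with 0 in the main fit, gave 1 (Dhcr7) after centring, with either filter, with the trend or with the mean of clusters (adjusted p 0.0273 to 0.0473), and 3 with array weights. Leaving out 1 array gave 7 to 19 in SB against control, 12 to 20 in SB+Dox against Dox, 0 to 4 in SB+Dox against SB, 1 to 4 in Dox against control, 13 to 22 in SB+Dox against control and 0 to 1 in the interaction. With the replicate number as a block the counts were 19, 19, 4, 2, 24 and 1 in the same order (Dhcr7 in the interaction, adjusted p = 0.0178). In SB+Dox against SB, where the numbers may pair the arrays, the block changed no call. In SB+Dox against Dox it lost no call and added Hsd17b7 (adjusted p = 0.0407). Over all clusters, centring moved the split of calls from 547 higher and 843 lower to 336 and 884 in SB against control, from 959 and 591 to 1188 and 370 in SB+Dox against SB, and in the interaction quantile normalization moved it from 158 and 37 to 59 and 25. The sign of a change depended on scaling in SB+Dox against SB for Hmgcs1, Fdps, Sqle, Fads1 and Fads2, of which none passed there. In the interaction, which no member passed in the main fit, 5 members changed sign with quantile normalization and 6 with centring. Members above 0 there numbered 11 with quantile normalization and 22 with centring.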
